A study of Mus musculus with 9 samples.

Results

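The genes described here encode the proteins of the mitochondrial ribosome. They were chosen by name: every gene whose symbol begins with Mrpl or Mrps in the array's annotation, taking only probe sets that name 1 gene, with the probe set of the highest mean over the 9 arrays standing for its gene. This gave 76 genes, read by 156 probe sets, out of 18193 genes measured. Of the 76 genes, 49 encode proteins of the large subunit and 26 proteins of the small subunit. The remaining one, Mrps36, kept its ribosomal name although its product is now placed in the 2-oxoglutarate dehydrogenase complex. The symbol does not always give the subunit: Mrps30 and Mrps18a encode large subunit proteins. Of 77 subunit genes listed for this work 75 were measured in this way, and Mrpl30 and Mrpl53 were not used because their probe sets also name another gene.

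Mitochondria keep their own ribosomes, which translate the few messages of mitochondrial DNA, all of them for subunits of the respiratory chain and ATP synthase. The rRNAs of this ribosome are copied from mitochondrial DNA, whereas all of its proteins are made from nuclear genes, translated in the cytosol and imported. Some of these proteins descend from those of the bacterial ribosome and others are found only in mitochondria. Their promoters are known to be rich in sites of NRF1, of the ETS factor GABP and of YY1.

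Trunk epidermis of newborn mice was profiled on Affymetrix Mouse Genome U430 2.0 arrays, 4 from mice labelled Alox12b knockout and 5 from mice labelled wildtype, with the strain 129S6 named for the wildtype samples only. Alox12b encodes the 12R-lipoxygenase that acts on acylceramides of the epidermal barrier, and pups without it have ichthyosis. All pups came from heterozygous matings, were killed right after birth and had the epidermis parted from the dermis by brief heating in buffer, and the labels call the arrays of each group biological replicates. The values are log2 expression values.

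Several features of the arrays bear on every value below. Alox12b itself read 11.13 ± 0.33 (SD, n = 4) in knockout and 10.91 ± 0.29 (SD, n = 5) in wildtype, a difference of 0.23 (limma adjusted p = 0.547). Where its probe set lies relative to the deletion was not used here, and the knockout label therefore has no check from this reading. Xist, the RNA of the inactive X chromosome, read 9.99 to 10.20 in knockout. In wildtype it read 10.95 on array 4 and 3.23 to 4.32 on the rest. Eif2s3y, a gene of the Y chromosome, read at most 2.43 in knockout, and in wildtype 2.11 on array 4 and 7.67 to 8.04 on the rest. Genotype and sex overlapped almost completely and cannot be told apart except through wildtype array 4. Values on knockout arrays 3 and 4 were spread less widely over the 45037 probe sets, with SDs of 2.05 and 2.03, than on knockout arrays 1 and 2, with SDs of 2.19 and 2.17, and than on the wildtype arrays, with SDs from 2.14 to 2.24. The mean of the 6 keratinocyte markers was 10.81 to 11.21 in knockout and 10.99 to 11.57 in wildtype, and 0 of the 6 passed. The differentiation markers Krt1, Krt10 and Lor differed by 0.03, -0.07 and 0.03, and the basal keratins Krt5 and Krt14 by -0.34 and 0.01. In knockout Krt5 read 8.41 to 8.70 and Krt14 8.58 to 9.19. On wildtype array 5 Krt5 read 7.47 and Krt14 7.36, whereas on the other wildtype arrays Krt5 read up to 9.76 and at least 9.0, and Krt14 read 9.11 to 9.65. Trp63, the transcription factor of basal keratinocytes, read 5.30 to 6.67 in knockout and 7.05 to 8.65 in wildtype. Its groups did not overlap, and its difference of -1.42 had a limma adjusted p of 0.0809. In whole epidermis, fewer cells of a type and less RNA per cell cannot be told apart.

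No mitochondrial ribosomal protein gene passed the test, and most read slightly lower in knockout. In limma, 0 of 76 had an adjusted p under 0.05, where 1.24% of all genes did (0.511% higher and 0.731% lower in knockout), and the lowest adjusted p among them was 0.0761. At an unadjusted p under 0.05, 17 were lower and 0 higher in knockout. That is 22.4% of the 76 lower, against 10.7% of all genes (7.08% were higher) and 19.8% of the 7184 genes with a mean of at least 5, a level that 69 of the 76 reached. The difference, knockout minus wildtype on the log2 scale, was negative for 68 of 76, or 89.5%, against 46.5% of all genes and 65.5% of genes with a mean of at least 5. Its median over the 76 was -0.21, with a range from -0.73 to 0.30, beside 0.02 over all genes and -0.12 over genes with a mean of at least 5. Every knockout array lay below every wildtype array for 7 of 76, or 9.21%, against 5.14% of all genes and 9.76% of genes with a mean of at least 5. No gene of the 76 had all knockout arrays above all wildtype arrays, as 3.14% of all genes did. In either direction 8.28% of all genes had separate groups.

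The negative differences came mostly from knockout arrays 3 and 4. Each value was set against the gene's own mean over the 9 arrays. The median of the 76 on knockout arrays 1 to 4 was 0.05, 0.01, -0.18 and -0.26. On wildtype arrays 1 to 5 it was 0.07, 0.04, 0.17, 0.03 and 0.07. Knockout array 1 thus lay among the wildtype arrays and knockout array 2 just below them, and wildtype array 3 stood highest. Knockout array 4 held the lowest of the 9 values for 37 genes and knockout array 3 for 22, whereas the highest value lay on wildtype array 5 for 26 genes and on wildtype array 3 for 21.

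The same 2 arrays were low for other genes. Over all genes with a mean of at least 5 the median was 0.05, 0.01, -0.11 and -0.22 on knockout arrays 1 to 4, against 0.01, 0.03, 0.04, 0.03 and 0.17 on wildtype arrays 1 to 5. Knockout array 4 read below all wildtype arrays for 57 of the 76 genes, or 75%, and for 50.7% of genes with a mean of at least 5. For knockout array 3 it was 50 genes, or 65.8%, and 41.9%. For knockout array 2 it was 24 genes, or 31.6%, and 25.7%, and for knockout array 1 it was 18 genes, or 23.7%, and 20.9%. Without both knockout arrays 3 and 4, a choice made after the data had been seen, 50 of 76 differences were negative, or 65.8%, beside 51.6% of all genes, and the median was -0.06. Without knockout array 4 alone 64 were negative and the median was -0.13.

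**Figure D1:**
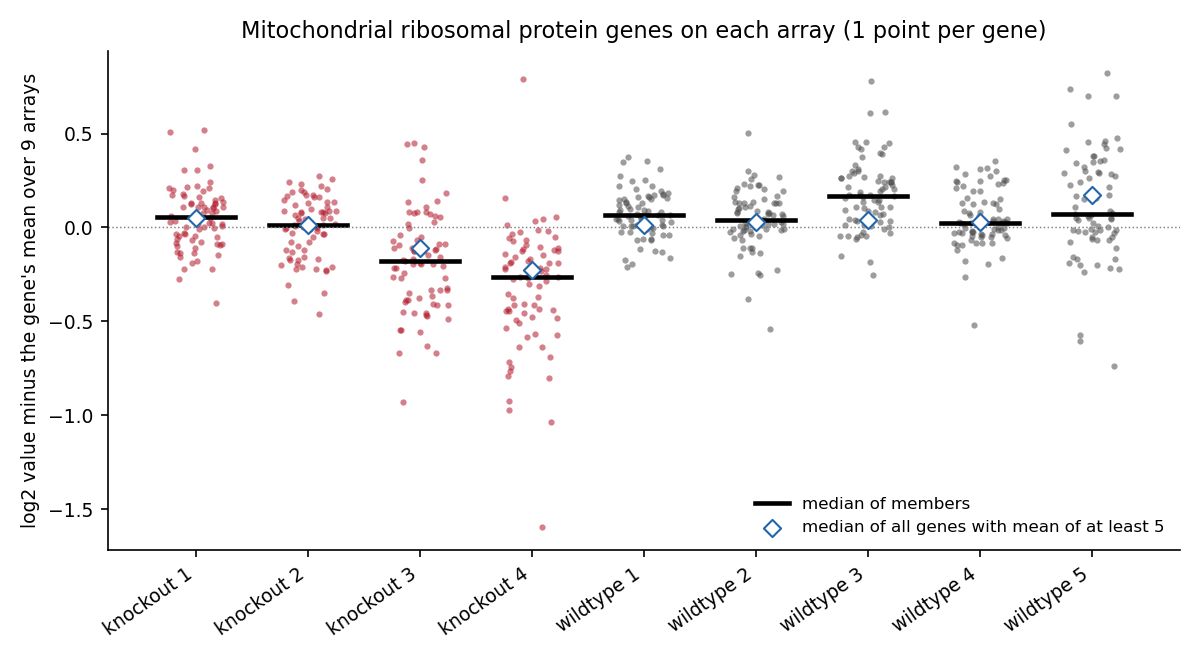
Each point is 1 of the 76 genes on 1 array, as the log2 value minus the gene's mean over the 9 arrays, with the 4 knockout arrays in red and the 5 wildtype arrays in grey. Black bars are medians of the 76 genes and diamonds medians of all genes with a mean of at least 5: both are lowest on knockout arrays 3 and 4, at -0.18 and -0.26 for the 76 genes, and the bar of wildtype array 3 is the highest, at 0.17.

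Level and difference were related across all genes. Genes with a mean under 3 had a median difference of 0.09, and those between 3 and 4 had 0.08. The median was -0.14 for genes between 5 and 6 and for those between 6 and 7, -0.13 between 7 and 8, -0.10 between 8 and 9, and -0.056 from 9 up. In the bins that held most of the 76 genes, their own medians were -0.19 for 12 genes between 5 and 6, -0.21 for 18 between 6 and 7, -0.22 for 26 between 7 and 8 and -0.22 for 11 between 8 and 9. Of the 76 genes 51 lay below the median of all genes of their bin, and the median distance from it was -0.09. Whether the narrower spread of values on knockout arrays 3 and 4 accounts for the remainder was not tested. With every array brought to the same median and SD, an alternative chosen after the data had been seen, the median of the 76 was -0.16 and 63 were negative. With quantile normalization it was -0.10 and 55 were negative, beside a median of 0.03 over all genes.

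**Figure D2:**
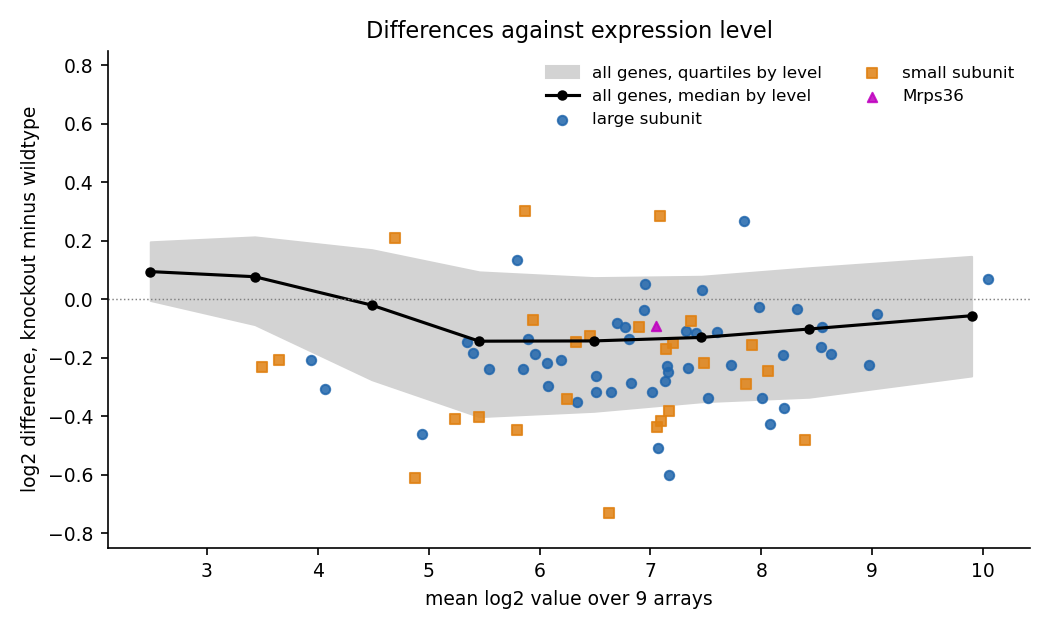
The x axis is the mean log2 value over 9 arrays and the y axis the log2 difference, knockout minus wildtype. The black line and grey band are the median and quartiles of all genes in bins of level, which dip to -0.14 between 5 and 7, and the coloured marks are the 76 genes, of which 51 lie under the median of their bin.

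The large subunit carries the peptidyl transferase centre and the tunnel through which the new chain leaves. Of its 49 genes 0 passed, 44 had negative differences, and the median was -0.21. Mrpl22, whose bacterial counterpart lines the exit tunnel, had the lowest adjusted p of the large subunit. It read 7.14, 6.71, 7.05 and 6.45 on knockout arrays 1 to 4, against 7.45, 7.43, 7.38, 7.47 and 7.46 on wildtype arrays 1 to 5. The groups did not overlap, and the wildtype arrays lay within a narrow band while the knockout arrays were spread out. The difference was -0.60, or 65.9% of the wildtype level, with a 95% interval from -0.92 to -0.28 and a limma adjusted p of 0.0761. Without knockout array 1 it was -0.70 with a limma adjusted p of 0.0491, and with array weights -0.61 with a limma adjusted p of 0.00664. Array weights also raised the count of all genes that passed to 1644, from 226 in the main comparison. Mrpl22 passed in no other alternative. Its difference was -0.60 with the replicate number as a block (limma adjusted p = 0.184) and -0.48 with quantile normalization (limma adjusted p = 0.114). With the Xist level as a covariate it was -0.64.

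Mrpl23, whose bacterial counterpart sits at the mouth of the tunnel, read 7.94, 7.90, 7.81 and 7.71 on knockout arrays 1 to 4, against 8.22, 8.18, 8.11, 8.39 and 8.42 on wildtype arrays 1 to 5. The groups were separate and every array of a group lay close to its fellows. The difference was -0.43, with a 95% interval from -0.67 to -0.18 and a limma adjusted p of 0.0945. Mrpl33 read 6.98, 7.02, 6.56 and 6.78 on knockout arrays 1 to 4 and 7.05, 7.08, 7.11, 7.24 and 7.30 on wildtype arrays 1 to 5. Mrpl21 read 6.09, 5.97, 6.06 and 5.66 on knockout arrays 1 to 4 and 6.23, 6.13, 6.13, 6.20 and 6.13 on wildtype arrays 1 to 5. For both, the groups were separate by a small margin, with differences of -0.32 and -0.22 and limma adjusted p values of 0.228 and 0.349.

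The other large subunit genes with the lowest differences had overlapping groups. Mrpl27, whose bacterial counterpart reaches the peptidyl transferase centre, averaged 6.79 ± 0.32 (SD, n = 4) in knockout and 7.29 ± 0.28 (SD, n = 5) in wildtype, a difference of -0.51 (limma adjusted p = 0.199). Knockout array 1, at 7.19, lay inside the wildtype range of 6.91 to 7.68. Mrpl19 differed by -0.46 with a 95% interval from -0.94 to 0.02, Mrpl42 by -0.37 and Mrpl47, the counterpart of a bacterial protein near the tunnel exit, by -0.35. Their limma adjusted p values were 0.301, 0.218 and 0.277.

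At the other end of the large subunit stood Mrpl46, at 8.0 ± 0.22 (SD, n = 4) in knockout and 7.73 ± 0.31 (SD, n = 5) in wildtype, a difference of 0.27 (limma adjusted p = 0.438). Mrpl49 differed by 0.14, Mrpl52 by 0.07, Mrpl55 by 0.05, Mrpl20 by 0.03 and Mrpl28 by -0.03. The sign of such small values is not fixed: when all probe sets of a gene were averaged Mrpl49 differed by -0.24, and without the less specific probe sets Mrpl52 differed by -0.21. Mrpl52 read 10.83 on knockout array 4, which held the lowest value of 37 genes, and 9.64 to 9.92 on knockout arrays 1 to 3, against 9.30 to 10.29 on the wildtype arrays.

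Mrpl12, a stalk protein that in human cells also binds the mitochondrial RNA polymerase, read 7.29, 7.18, 6.72 and 6.72 on knockout arrays 1 to 4, against 7.26, 7.15, 7.31, 7.16 and 7.41 on wildtype arrays 1 to 5. Knockout arrays 3 and 4 lay below every wildtype array and knockout arrays 1 and 2 among them. The difference was -0.28, with a 95% interval from -0.60 to 0.04 and a limma adjusted p of 0.343. By origin, the 29 large subunit genes with a bacterial counterpart had a median difference of -0.23 and 27 negative values, and the 20 specific to mitochondria a median of -0.14 and 17 negative values. The difference between these classes was not tested.

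**Figure D3:**
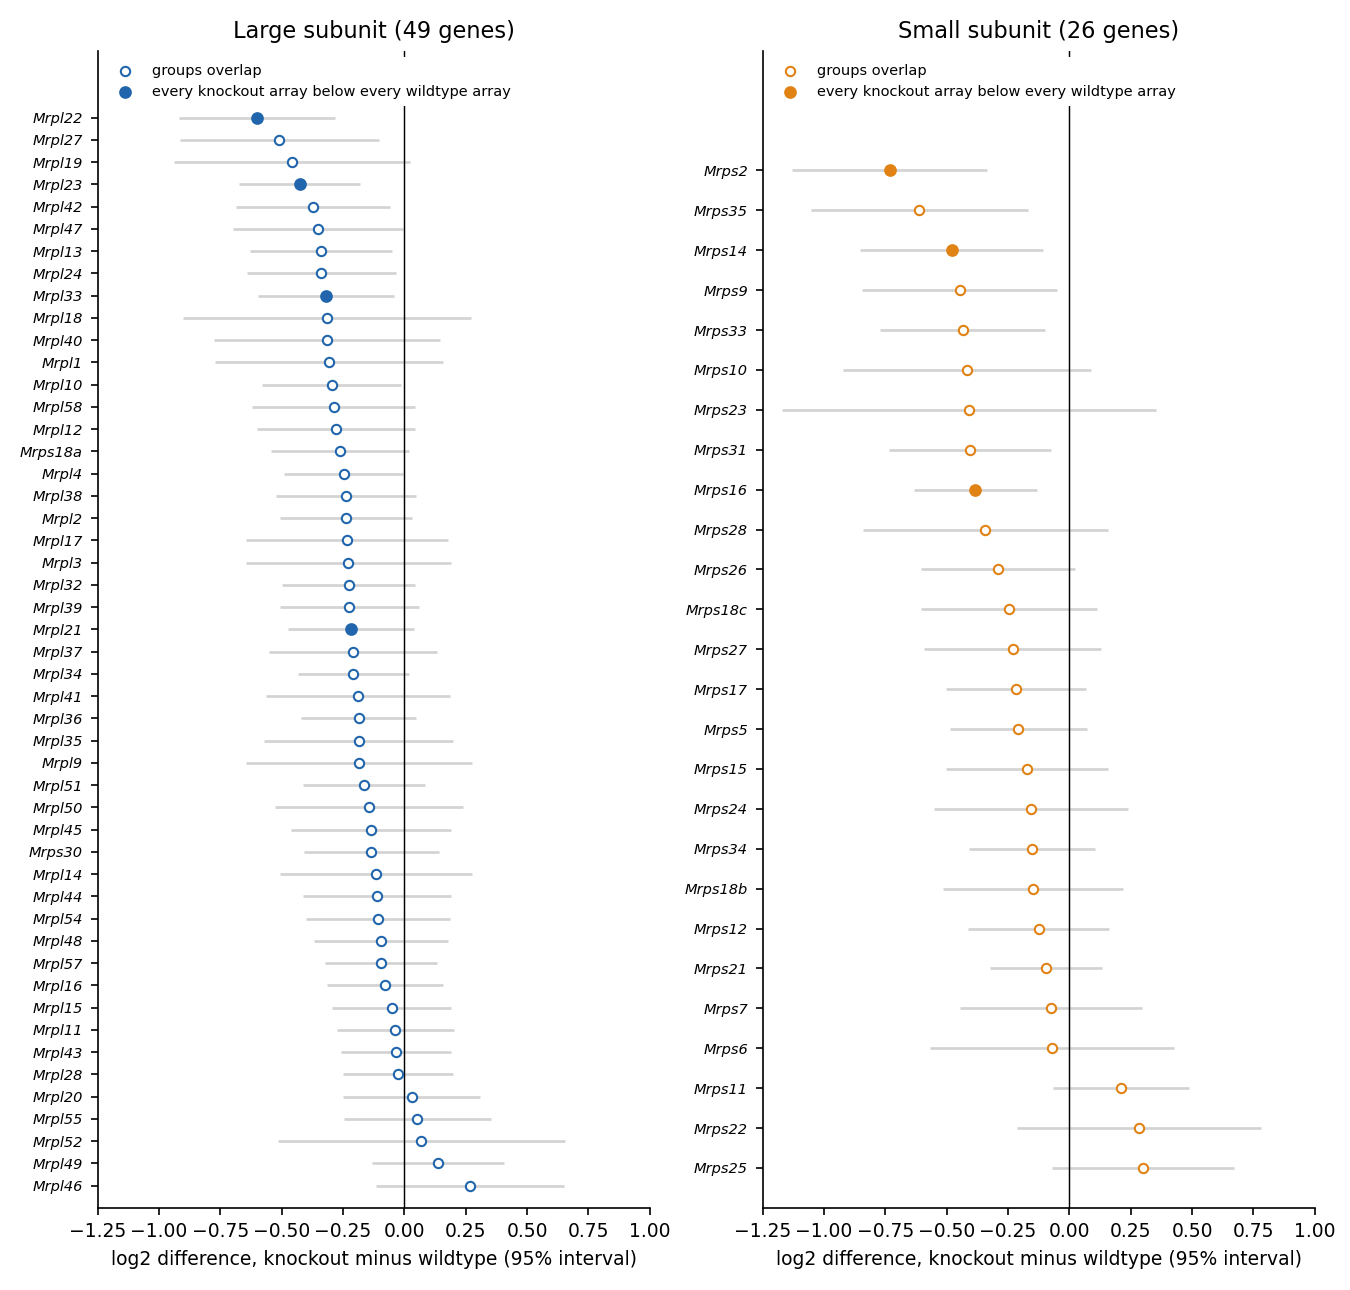
Log2 differences, knockout minus wildtype, with limma 95% intervals for 49 large subunit genes and 26 small subunit genes, ordered within each subunit. Filled marks are the 7 genes for which every knockout array lay below every wildtype array. The values run from -0.73 for Mrps2 to 0.30 for Mrps25.

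The small subunit binds the messenger RNA and holds the decoding site. Of its 26 genes 0 passed, 23 had negative differences, and the median was -0.22. Mrps2 had the lowest difference of all 76. It read 6.53, 6.28, 6.24 and 5.82 on knockout arrays 1 to 4, against 6.84, 6.75, 6.92, 6.78 and 7.44 on wildtype arrays 1 to 5. The groups did not overlap, and wildtype array 5 stood above the rest of its group. The difference was -0.73, or 60.2% of the wildtype level, with a 95% interval from -1.13 to -0.33 and a limma adjusted p of 0.0831. A dimmer probe set of Mrps2, with a mean of 3.55, differed by 0.13 with an unadjusted limma p of 0.416.

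Mrps14 read 8.49, 8.40, 7.98 and 7.65 on knockout arrays 1 to 4, against 8.53, 8.53, 8.69, 8.55 and 8.76 on wildtype arrays 1 to 5. Knockout array 1 came within a small margin of the wildtype arrays and knockout arrays 3 and 4 lay well below. The difference was -0.48 with a limma adjusted p of 0.192. Mrps16 read 7.12, 6.95, 6.83 and 6.92 on knockout arrays 1 to 4, against 7.18, 7.21, 7.36, 7.49 and 7.46 on wildtype arrays 1 to 5. Its groups were separate as well, with a difference of -0.38 and a limma adjusted p of 0.136. Mrps2, Mrps14 and Mrps16 all have bacterial counterparts.

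**Figure D4:**
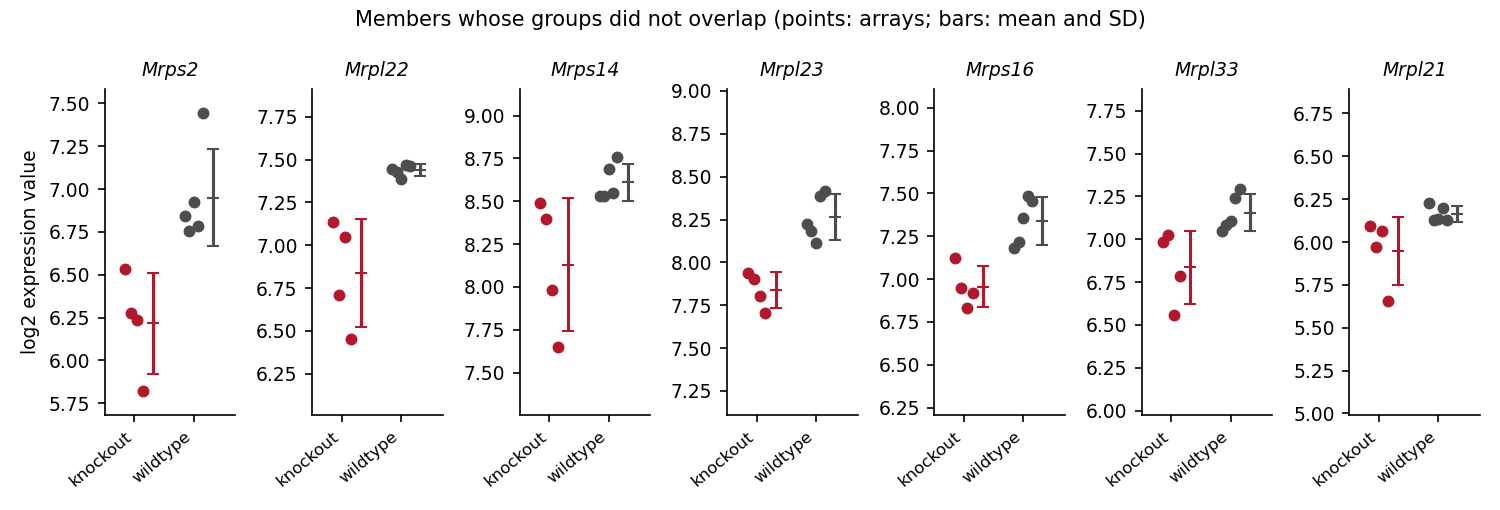
Log2 expression values of the 7 genes whose groups did not overlap, with 4 knockout arrays to the left of 5 wildtype arrays in each panel, and bars for the mean and SD. The y axes have equal length and different origins. The lowest knockout value is on array 4 for all but Mrps16 and Mrpl33, where it is on array 3.

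Among the small subunit genes with overlapping groups, Mrps35 averaged 4.53 ± 0.31 (SD, n = 4) in knockout and 5.14 ± 0.35 (SD, n = 5) in wildtype, a difference of -0.61 (limma adjusted p = 0.168). Mrps9 differed by -0.45, Mrps33 by -0.44, Mrps10 by -0.42 and Mrps31 by -0.40, with limma adjusted p values of 0.234, 0.190, 0.368 and 0.206. Mrps10 shows how much rests on the arrays: it read 7.34 and 7.29 on knockout arrays 1 and 2, 6.69 and 6.12 on knockout arrays 3 and 4, and 7.07 to 7.48 on the wildtype arrays. Without knockout arrays 3 and 4 its difference was 0.04. Mrps31 had a dimmer probe set, with a mean of 2.91, that differed by 0.28.

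Mrps23 and Mrpl18, singled out after their values were seen, held the lowest single readings relative to their own means. Mrps23 read 3.64 on knockout array 4 and 5.41, 5.41 and 5.60 on knockout arrays 1 to 3, against 5.21 to 5.72 on the wildtype arrays. Mrpl18 read 5.47 on knockout array 4 and 6.18 to 7.01 on knockout arrays 1 to 3, against 6.34 to 6.92 on the wildtype arrays. A single array thus carried the difference of -0.41 for Mrps23, whose limma adjusted p was 0.552.

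The highest differences of the small subunit were those of Mrps25, at 0.30, Mrps22, at 0.29, and Mrps11, at 0.21. Mrps25 read 6.38, 6.14, 6.12 and 5.49 on knockout arrays 1 to 4, against 5.69, 5.61, 5.84, 5.85 and 5.66 on wildtype arrays 1 to 5. It was above the wildtype range on knockout arrays 1 to 3 and below it on knockout array 4, and its limma adjusted p was 0.374, or 0.0313 with array weights, where its difference was 0.46. Mrps22, in which human variants cause mitochondrial disease, read 7.04 to 7.51 in knockout and 6.52 to 7.70 in wildtype, with a limma adjusted p of 0.524. Mrps7 differed by -0.07 and Mrps21 by -0.09. Mrps6 differed by -0.07 in a less specific probe set with a mean of 5.94, and by -0.50 in its other probe set, with a mean of 4.42 and a limma adjusted p of 0.254 in the comparison without less specific probe sets. The 16 small subunit genes with a bacterial counterpart had a median difference of -0.21, and the 10 specific to mitochondria one of -0.26.

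The 3 paralogs of bacterial S18 occupy different places: Mrps18c keeps the bacterial position, Mrps18b lies elsewhere in the small subunit, and Mrps18a is in the large subunit. Mrps18a read 6.24, 6.34, 6.60 and 6.29 on knockout arrays 1 to 4, against 6.61, 6.56, 6.93, 6.55 and 6.50 on wildtype arrays 1 to 5. Mrps18b read 6.53, 6.50, 5.94 and 6.02 on knockout arrays 1 to 4, against 6.38, 6.19, 6.76, 6.33 and 6.32 on wildtype arrays 1 to 5. Mrps18c read 8.15, 8.07, 7.94 and 7.52 on knockout arrays 1 to 4, against 8.24, 8.22, 8.46, 8.08 and 7.84 on wildtype arrays 1 to 5. The groups overlapped for all 3 paralogs, and wildtype array 3 held the highest value of each. The differences were -0.26 for Mrps18a, -0.15 for Mrps18b and -0.25 for Mrps18c, with limma adjusted p values of 0.312, 0.665 and 0.450. Mrps36 read 6.98 to 7.01 in knockout and 7.0 to 7.18 in wildtype, with a difference of -0.09 and a limma adjusted p of 0.631.

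Probe sets of a gene did not always run together. For 42 genes more than 1 probe set was present, and the brightest and the second brightest had the same sign in 29. Where the second brightest had a mean of at least 5 the sign was the same in 13 of 14. Of all 156 probe sets 119 had negative differences. Opposite signs with an unadjusted limma p under 0.05 in either probe set were found for 3 genes, Mrps2, Mrps31 and Mrpl47, and the second probe set of Mrpl47 had a mean of 2.63. With all probe sets of a gene averaged, the differences were -0.30 for Mrps2, -0.30 for Mrps14, -0.27 for Mrpl27, -0.14 for Mrpl19, -0.08 for Mrpl47, -0.06 for Mrps31 and 0.11 for Mrps25, each smaller in size by over 1.5 times than in the brightest probe set. Without the less specific probe sets Mrps9 differed by -0.19 and Mrpl19 by -0.30.

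RefSeq promoter sequences of build GRCm38.p6, 250 bases before and 50 after the start, were matched for 67 of the 76 genes, with 73 starts, and Mrpl13, Mrpl15, Mrpl19, Mrpl38, Mrpl4, Mrpl54, Mrps28, Mrps34 and Mrps35 had none in the table. The ETS core CCGGAAG, searched on both strands, was in 34.2% of the 73 promoters, against 8.86% of all 32851 promoters and 18.8% of promoters of genes with a mean of at least 5. The NRF1 motif, GCGCA and GCGC with 1 base of any kind between them, was in 16.4%, against 4.60% of all promoters and 10.9% of those of genes with a mean of at least 5. The YY1 motif AAGATGGC was in 16.4%, against 2.75% and 4.99%. Among the 68 promoters of members with a mean of at least 5 the shares were 35.3% for ETS, 17.6% for NRF1 and 13.2% for YY1. The E-box CACGTG, bound by Myc among others, was in 9.59% against 7.15% and 10.6%. Of its 7 promoters 3 are starts of Mrpl2, and counted by gene it was in 7.46% of the 67 genes against 8.09% of all genes, so the order turned. Counted by gene the shares were 37.3% against 9.93% for ETS, 17.9% against 5.19% for NRF1 and 17.9% against 3.19% for YY1. The TATA box TATAAA was in 6.85% of the 73 promoters against 13.6% and 7.42%. The median number of CpG dinucleotides was 21 in the 73 promoters and 7 in all promoters, and was not taken over promoters of genes with a mean of at least 5. A match is a description of the letters and not a bound site.

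The stretches below end at the base before the start. They are shown for Mrpl12 and Mrps18a, as members with an NRF1 and an ETS motif and negative differences, for Mrps22, as a member with an ETS motif and a positive difference, and for Mrps14, a gene whose groups did not overlap and whose stretch held none of the 5 motifs. Capitals mark the motif letters, and no gene record of the same build overlapped any of the stretches.
Mrpl12, chr11:120484517-120484636, plus strand: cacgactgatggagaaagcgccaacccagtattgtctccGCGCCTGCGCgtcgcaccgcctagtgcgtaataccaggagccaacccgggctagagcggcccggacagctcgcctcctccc
Mrps18a, chr17:46110884-46111003, plus strand: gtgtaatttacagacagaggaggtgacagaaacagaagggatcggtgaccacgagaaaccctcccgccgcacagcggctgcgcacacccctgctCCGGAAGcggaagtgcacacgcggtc
Mrps22, chr9:98601680-98601799, minus strand: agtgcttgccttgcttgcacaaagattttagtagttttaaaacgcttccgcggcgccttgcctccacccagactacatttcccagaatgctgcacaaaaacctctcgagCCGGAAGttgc
Mrps14, chr1:160195095-160195214, plus strand: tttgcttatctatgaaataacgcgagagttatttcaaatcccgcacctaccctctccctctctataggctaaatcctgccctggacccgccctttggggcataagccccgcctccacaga

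Many of these genes start back to back with a neighbour. A start on the opposite strand, pointing away and within 1000 bases, was found for 25 of 67 genes, or 37.3%, against 12.3% of 27025 genes with a promoter in the table. The share among genes with a mean of at least 5 was not counted. One such pair joins both subunits: Mrpl46 and Mrps11 start 42 bases apart, and the bases between their starts, shown 5′ to 3′ on the minus strand in the direction of Mrpl46, are the following.
Mrpl46 and Mrps11, chr7:78783090-78783130: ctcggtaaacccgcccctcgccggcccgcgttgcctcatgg
Both genes of this pair had positive differences, 0.27 for Mrpl46 and 0.21 for Mrps11, where 68 of 76 were negative. Mrps11 read 4.64, 4.74, 5.13 and 4.75 on knockout arrays 1 to 4, against 4.71, 4.46, 4.71, 4.61 and 4.53 on wildtype arrays 1 to 5, and its limma adjusted p was 0.403. Mrpl46 read 7.76, 7.93, 8.29 and 8.0 on knockout arrays 1 to 4, against 7.81, 7.69, 8.09, 7.81 and 7.24 on wildtype arrays 1 to 5. Both had their highest value on knockout array 3, and the groups overlapped for both.

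Other partners in such pairs include Twnk, the mitochondrial DNA helicase, which starts 116 bases from Mrpl43, Sars2, the mitochondrial seryl-tRNA synthetase, which starts 147 bases from Mrps12, and the complex I gene Ndufb5, 308 bases from Mrpl47. Twnk differed by -0.69 where Mrpl43 differed by -0.03, Sars2 by 0.03 where Mrps12 differed by -0.12, and Ndufb5 by -0.49 where Mrpl47 differed by -0.35. None of the 25 partners passed in limma. Their median difference was 0.03, beside 0.02 over all genes, and 11 were negative, as were 46.5% of all genes. Mrpl46 and Mrps11, each the partner of the other, are counted among the 25. Of the 9 partners with a mean of at least 5, 6 were negative, as were 65.5% of all genes at that level.

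The other genes of mitochondrial translation gave the same count of calls. Over the lists written out for this work, 0 genes passed in limma. The mitoribosomal proteins with other names were Dap3, Chchd1, Ptcd3 and Gadd45gip1. All 4 had negative differences, with a median of -0.40. Dap3, a GTP-binding protein of the small subunit, read 7.45, 7.45, 7.33 and 6.95 on knockout arrays 1 to 4, against 7.65, 7.96, 7.78, 7.90 and 7.87 on wildtype arrays 1 to 5. Its groups did not overlap, and the difference was -0.54 with a limma adjusted p of 0.0833. Chchd1 differed by -0.43 with a limma adjusted p of 0.246.

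Of 32 assembly and rRNA factors, 10 were lower and 1 was higher at an unadjusted p under 0.05, with a median of -0.21. The lower ones were 31.2% of the list, against 10.7% of all genes and 19.8% of genes with a mean of at least 5. Mterf3, which represses mitochondrial transcription and is needed for assembly of the large subunit, averaged 5.73 ± 0.46 (SD, n = 4) in knockout and 6.74 ± 0.31 (SD, n = 5) in wildtype. Its difference was -1.01 with a limma adjusted p of 0.0622, and knockout array 1, at 6.36, lay above the lowest wildtype array, at 6.29. Noa1, a GTPase of small subunit assembly, differed by -0.73 with a limma adjusted p of 0.188. Of 11 translation factors 9 had negative differences, with a median of -0.25. Mrrf, the ribosome recycling factor, was the exception in size, at 7.88 ± 0.09 (SD, n = 4) in knockout and 7.33 ± 0.33 (SD, n = 5) in wildtype, a difference of 0.55 (limma adjusted p = 0.137). Mtif3, an initiation factor, differed by -0.47 with a limma adjusted p of 0.328.

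Of 21 genes for mitochondrial aminoacyl-tRNA synthetases and the glutaminyl-tRNA amidotransferase 15 had negative differences, with a median of -0.09, and the largest in size were those of Yars2, at -0.60, and Tars2, at -0.41. The 11 genes of mitochondrial DNA transcription and replication had a median of -0.53, with 10 negative and 6 lower at an unadjusted p under 0.05. These were 90.9% and 54.5% of the list, against 46.5% and 10.7% of all genes, and 65.5% and 19.8% of genes with a mean of at least 5. Only 5 of the 11 had a mean of at least 5. Wildtype array 5 held the highest value of every gene of the list but Polrmt, Mterf2 and Top1mt. On that array Twnk read 6.46, against 5.31 to 5.65 on the other wildtype arrays, and Polg2 read 6.31, against 4.72 to 4.93. Tefm, the elongation factor of mitochondrial transcription, read 3.28, 3.12, 2.63 and 2.81 on knockout arrays 1 to 4, against 3.54, 3.87, 3.56, 3.87 and 4.78 on wildtype arrays 1 to 5. These are low readings, the groups did not overlap, and the difference was -0.96 with a limma adjusted p of 0.0911. Tfam, which packages mitochondrial DNA, differed by -0.81 with a limma adjusted p of 0.245, and its values were 4.76, 4.73, 4.39 and 3.02 on knockout arrays 1 to 4. On wildtype arrays Tfam read 4.70 to 5.58. The 9 regulators, among them Nrf1, Yy1, Myc and the PGC-1 family, had a median of 0.06. Gabpa, which encodes the DNA-binding chain of GABP, differed by -0.31 and Gabpb1, which encodes its partner chain, by 0.27, with limma adjusted p values of 0.547 and 0.432.

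Genes of the cytosolic ribosome and of the respiratory chain gave a scale for these values. The 44 cytosolic ribosomal protein genes had a median difference of -0.21 with 38 negative, and 18 of them, or 40.9%, had groups that did not overlap, all lower in knockout. The share was 5.14% of all genes, 9.76% of genes with a mean of at least 5 and 9.21% of the 76 genes. Rps9 differed by -0.44, Rps3a1 by -0.39, Rpl7 by -0.38 and the dim Rpl12, with a mean of 4.39, by -0.33. Their limma adjusted p values were 0.124, 0.132, 0.163 and 0.529. The 33 complex I subunits had a median of -0.08 with 25 negative, with Ndufa9 at -0.49 and Ndufb5 at -0.49, and the 33 subunits of complexes III, IV and V a median of -0.11 with 24 negative, with Uqcrc2 at -0.54 and the dim Cox7c at -0.69. The median deviation of the complex I subunits was 0.07, 0.03, -0.13 and -0.17 on knockout arrays 1 to 4, against 0.02, 0.02, 0.14, 0.09 and 0.05 on wildtype arrays 1 to 5. The lowest 2 arrays were those on which the mitochondrial ribosomal protein genes were lowest. No test set one list against another.

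**Figure D5:**
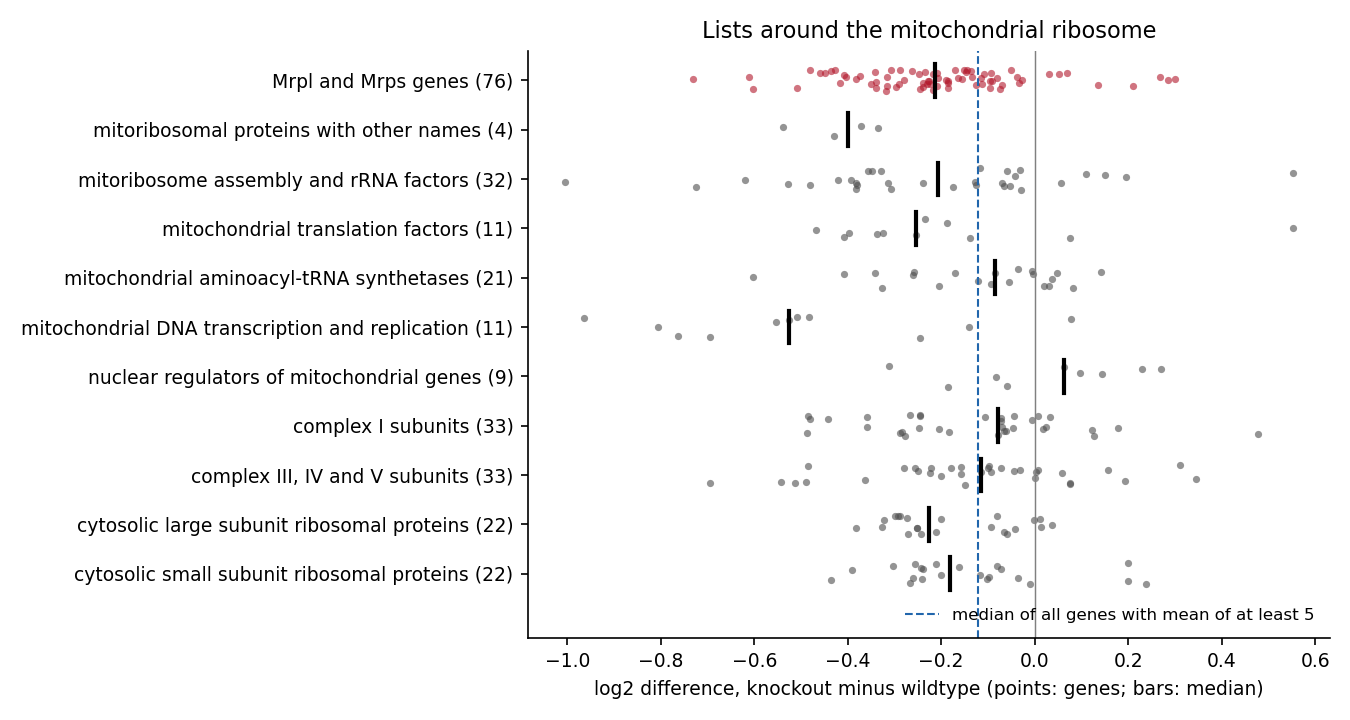
Log2 differences, knockout minus wildtype, for the 76 Mrpl and Mrps genes in red and for 10 lists of related genes in grey, with the number of genes in brackets and black bars for medians. The dashed line is the median of all genes with a mean of at least 5, at -0.12. The medians run from -0.53 for mitochondrial DNA transcription and replication to 0.06 for nuclear regulators.

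Markers of other cell types moved with some of the same arrays, and their part in these values was not tested. The mean of 6 measured adipocyte markers of 8 listed, none of which passed, was 4.43 to 4.90 in knockout and 4.19 to 6.88 in wildtype, highest on wildtype array 3, where the 76 genes also stood highest, and lowest on wildtype array 1. The median difference of the 6 was -1.07, and 2 of them were lower at an unadjusted p under 0.05, Adipoq at -3.06 and Retn at -1.76. Fabp4 and Cox8b differed by -1.52 and -0.61, and Ucp1 and Cidea by 0.27 and 0.25. Adipoq read 2.42 to 4.27 in knockout and 2.83 to 9.46 in wildtype. Ucp1, the marker of brown fat, had low readings and averaged 3.78 in knockout and 3.50 in wildtype. Without wildtype array 3 the median difference of the 76 genes was -0.18. The mean of 5 fibroblast markers was 9.98 on knockout array 4, between 6.08 and 7.86 on knockout arrays 1 to 3, and 5.74 to 8.38 in wildtype. The mean of 4 smooth muscle markers was 6.76 on knockout array 4, up to 4.25 on knockout arrays 1 to 3, and 3.72 to 4.30 in wildtype. The 4 measured proliferation markers had a mean of 5.92 to 6.39 in knockout and 5.74 to 6.67 in wildtype. Skeletal muscle is a tissue rich in mitochondria. The mean of its markers was 6.07, 5.84, 4.57 and 4.43 on knockout arrays 1 to 4. On wildtype arrays 1 to 5 it was 4.87, 4.86, 5.36, 7.22 and 4.03. Knockout arrays 3 and 4 were thus the lower knockout arrays for these markers as for the 76 genes. The lowest and highest means of all lay on wildtype arrays 5 and 4. The 5 hair follicle markers had a median difference of -0.81, and 2 of them were lower at an unadjusted p under 0.05. Their mean was 5.71, 6.08, 6.34 and 7.07 on knockout arrays 1 to 4, against 7.04, 6.56, 7.65, 6.94 and 6.93 on wildtype arrays 1 to 5. Knockout arrays 1 to 3 lay below every wildtype array and knockout array 4 among them, and wildtype array 3 stood highest. Tchh, or trichohyalin, differed by -1.36 with a limma adjusted p of 0.0556. The inner root sheath keratins Krt27, Krt25 and Krt71 differed by -1.16, -0.81 and -0.30, and Msx2 by -0.0011. The 5 melanocyte markers had a mean of 4.46 to 5.34 in knockout and 3.22 to 4.78 in wildtype, with a median difference of 0.46 and 1 of them higher at an unadjusted p under 0.05. The 5 markers of Langerhans cells and macrophages had a mean of 5.46 to 6.09 in knockout and 4.51 to 7.04 in wildtype, with a median difference of -0.17. In each of these marker lists 0 genes passed in limma.

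Wildtype array 4, the wildtype array with high Xist, had a median deviation of 0.03 for the 76 genes, against 0.04 to 0.17 on the other wildtype arrays. The 4 knockout arrays, all with high Xist, had 0.05, 0.01, -0.18 and -0.26. With the Xist level as a covariate the median difference was -0.18, 68 of 76 were negative, 4 were lower at an unadjusted p under 0.05 and 0 passed in limma. In the same fit 49.9% of all genes were negative and 9 of all genes passed. High Xist parted from the knockout label only on wildtype array 4, so this fit rests on that array.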

How the data were processed

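One table was deposited, with log2 values from 1.43 to 14.46 for 45037 probe sets and 9 arrays. Labelled cRNA was hybridised to the arrays, per the labels' protocols. Per the submitters' processing notes the tool was affy. Not given in the sources used here are its version and how background, scaling between arrays and probe summary were handled. The values were used as deposited. The number of arrays limits the precision. At most 124 probe sets had identical values on 2 arrays of a group.

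Gene names came from the platform annotation, in which 34945 probe sets name 1 gene, 932 name several and 9160 have no entry. Of those with 1 gene, 34741 were found in RefSeq's table for GRCm38.p6. Knockout and wildtype arrays, grouped and numbered by their titles, were compared over 18193 genes with limma 3.58.1 in R 4.3.3, with genotype as the term, no filter, and Benjamini-Hochberg adjustment over all genes at a threshold of 0.05. Lists were described by counts and medians without a test. Probe sets ending in _s_at, _x_at or _a_at were called less specific. Members, lists and the rule for named genes were chosen with earlier results of these data known. The rule took, in each subunit, the 6 highest and 6 lowest differences, then the S18 paralogs, Mrpl12, genes with opposed probe sets and, in each list, the largest 2 differences in size. The genes with separate groups, partners at divergent starts, and Mrps36 were named beside it after their values were seen.

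On data simulated for this comparison with 18193 genes, 200 of them changed, 69% of changes of 1 and 95% of changes of 2 on the log2 scale were recovered, and 8 unchanged genes were called. No smaller changes and no array or sex effects were simulated. The differences of the 76 genes ran from -0.73 to 0.30, and recovery of changes of that size was not tested. The alternatives covered probe sets, a filter, scaling, eBayes settings, array weights, Xist, the replicate number and arrays left out, and 2 were added after seeing the data.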

Additional observations from a re-analysis of the deposited data

Results flagged for a closer look

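In groups of 4 or 5 arrays, 1 array stood far from the rest in 15 of the 194 sets of values examined. Chance gives about 1 in 20 for a single set of independent values. The sets here share the same arrays, and the genes taken from the other lists were picked for large differences in these data. The count is therefore a description and cannot be tested against that share. Knockout array 4 was low for Mrps7 (6.79, with the others from 7.49 to 7.50), Mrpl40 (5.72, nearest 6.68), Mrps12 (6.02, nearest 6.45) and Mrps23 (3.64, nearest 5.41). Without it Mrps7 differed by 0.10. Knockout array 3 was high for Mrps30, at 6.88 with 6.70 next. Wildtype array 5 was high for Mrps2 (7.44, nearest 6.92), Mrps26 (8.31, with the others from 7.88) and Mrps27 (4.05, nearest 3.54), and also for Yars2 at 5.23, Tefm at 4.78, Gabpa at 7.39, Rpl12 at 5.33 and Rps3a1 at 13.43. Wildtype array 3 was high for Mrps18a, at 6.93 with 6.61 next, and wildtype array 2 was low for Mrpl28, at 7.87 with 8.01 next.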

How the results depend on the processing

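The count of 0 of 76 held under all alternatives except 2: it was 4 with array weights (Mrpl22, Mrpl23 and Mrps2 lower, Mrps25 higher, beside 1644 of all genes) and 1 without knockout array 1 (Mrpl22). Over the arrays left out in turn the count ran from 0 to 1, the negative differences from 64 to 69, and the median from -0.27 to -0.13, with -0.27 to -0.12 for the large and -0.31 to -0.13 for the small subunit. The lowest size was without knockout array 4. The median of the 76, of the large and of the small subunit was -0.093, -0.096 and -0.078 with array weights and -0.063, -0.070 and -0.024 without both knockout arrays 3 and 4. With quantile normalization the first 2 were -0.099 and -0.097, and the small subunit had -0.17. No alternative turned the sign of a median. Of 577 recomputed values of the 29 named genes 540 kept sign and side, 5 came to pass and 32, none of which passed, changed sign; the cause was not tested.

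Changes of sign by setting were as follows. With the mean of probe sets Mrpl49 had -0.24, and without less specific probe sets Mrpl52 had -0.21. Quantile normalization gave Mrpl28 0.074, Mrps21 0.026, Mrps7 0.031 and Mrps6 0.076, and median centring Mrpl20 -0.012. With the same median and SD on every array, added after the data had been seen, Mrpl28 had 0.072. Array weights gave Mrpl28 0.018, Mrpl52 -0.25, Mrps7 0.091, Mrps6 0.29 and Mrps18b 0.090. The Xist covariate gave Mrpl52 -0.22. The replicate block gave Mrpl55 -0.00099, Mrpl52 -0.11 and Mrps6 0.098, as did leaving out wildtype array 5, which the block removes from the comparison. Without knockout arrays 3 and 4, also added then, Mrpl52 had -0.23, Mrps10 0.036, Mrps7 0.10, Mrps6 0.057 and Mrps18b 0.12. With single arrays left out Mrpl28 ran from -0.057 to 0.021, Mrpl20 from -0.041 to 0.10, Mrpl52 from -0.18 to 0.21, Mrpl55 from -0.0077 to 0.12, Mrps6 from -0.21 to 0.098 and Mrps7 from -0.13 to 0.10.

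The deviations of same-numbered arrays of the groups had correlations of -0.21, -0.10, -0.21 and 0.18 across genes. The labels pair no arrays by number, and whether same-numbered arrays belong together cannot be told from these values. With the replicate block 0 of 76 passed and the median was -0.21, and 119 of all genes passed against 226 without it. Over all genes the count was 9 with the Xist covariate and ran from 62 to 281 with single arrays left out.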
